A study of Mus musculus with 2 samples.

Results

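Ctsk and its neighbour Ctss lie in the same orientation on mouse chromosome 3 and were examined here as 1 locus, by CG methylation in osteoblasts with and without the TET enzymes. The members were chosen by position: both genes, the sequence between them and 25 kb outside, as annotated by GENCODE M21 on GRCm38, 2 of 21938 protein-coding genes on the nuclear chromosomes. Ctsk (ENSMUSG00000028111.4) runs from chr3:95499256-95509362 on the plus strand with 8 exons, and Ctss (ENSMUSG00000038642.10) from chr3:95526786-95556403 on the plus strand, also with 8 exons. The window of 107148 bp from chr3:95474256-95581403 held 934 CpGs, the end of Arnt upstream, the first part of Hormad1 downstream, and the processed pseudogene Hmgb1-ps5 inside Ctss.

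Cathepsin K, the product of Ctsk, is a lysosomal cysteine protease that degrades collagen and is best known as the enzyme with which osteoclasts resorb bone matrix; it is also made by some mesenchymal cells of the skeleton. Cathepsin S, the product of Ctss, is a related cysteine protease that antigen-presenting cells use to cut the invariant chain of MHC class II. The TET enzymes oxidise 5-methylcytosine, a step toward its removal, and act at promoters and enhancers that are low in methylation.

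Whole-genome bisulfite sequencing had been done on primary osteoblasts of 3-day-old C57BL/6 mice, isolated from calvarial bone and cultured before harvest. The WT group was wild type, and the TCKO group carried Prx1-Cre with Tet1fl/fl, Tet2fl/fl and Tet3fl/fl, so that all 3 Tet genes were deleted where Prx1-Cre, a driver active in mesenchymal cells of the limb and of part of the skull, had been expressed. Each genotype had 1 library. Every p-value below therefore compares those libraries and not the genotypes, and every interval covers counting error alone, without the spread between animals or repeated counts of 1 read. Bisulfite sequencing reads 5-methylcytosine and 5-hydroxymethylcytosine alike.

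Stretches of reference sequence (GRCm38, plus strand, CpGs in capitals) are given for the places on which the results turn. The first pair comes from either side of exon 1 of Ctsk, where WT was unmethylated and TCKO was not. Exon 1 itself is 5′ untranslated and is not shown. The upstream stretch ends at 95499239, short of exon 1 at 95499256, and the bases between are not shown either. The next pair comes from intron 1 of Ctsk, where 1 stretch stayed low and the other did not. The following 3 are, beside the bin over the Ctsk start, the bins that could be tested and were called with a gain over 40 percentage points, and the last precedes Ctss.
Ctsk upstream, chr3:95498940-95499239: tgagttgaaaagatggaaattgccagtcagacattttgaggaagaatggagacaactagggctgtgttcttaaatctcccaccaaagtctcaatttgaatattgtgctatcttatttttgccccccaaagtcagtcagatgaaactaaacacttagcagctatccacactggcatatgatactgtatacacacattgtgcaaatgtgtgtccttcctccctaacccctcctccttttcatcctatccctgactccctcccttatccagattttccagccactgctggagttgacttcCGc
Ctsk intron 1, first bases, chr3:95499337-95499400: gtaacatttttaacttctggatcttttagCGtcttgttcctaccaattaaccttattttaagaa
Ctsk intron 1, low in both libraries, chr3:95499801-95500000: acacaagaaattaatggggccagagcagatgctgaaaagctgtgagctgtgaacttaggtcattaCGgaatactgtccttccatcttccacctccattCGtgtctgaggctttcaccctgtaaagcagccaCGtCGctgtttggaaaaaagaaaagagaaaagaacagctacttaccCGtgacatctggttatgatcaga
Ctsk intron 1, higher in TCKO, chr3:95500201-95500400: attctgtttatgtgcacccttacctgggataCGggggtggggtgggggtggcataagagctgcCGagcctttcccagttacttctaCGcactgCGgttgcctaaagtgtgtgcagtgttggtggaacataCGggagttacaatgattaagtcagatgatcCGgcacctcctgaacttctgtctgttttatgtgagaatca
Arnt intron near its end, chr3:95494001-95494200: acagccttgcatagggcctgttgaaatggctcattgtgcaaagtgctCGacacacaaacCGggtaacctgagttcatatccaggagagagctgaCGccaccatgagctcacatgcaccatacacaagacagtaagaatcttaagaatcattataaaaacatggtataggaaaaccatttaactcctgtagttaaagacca
Between the genes, first bin, chr3:95518801-95519000: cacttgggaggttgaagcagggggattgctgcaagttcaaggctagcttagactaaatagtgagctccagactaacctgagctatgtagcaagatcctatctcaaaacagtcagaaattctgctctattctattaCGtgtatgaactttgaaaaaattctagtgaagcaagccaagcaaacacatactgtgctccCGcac
Between the genes, second bin, chr3:95519001-95519200: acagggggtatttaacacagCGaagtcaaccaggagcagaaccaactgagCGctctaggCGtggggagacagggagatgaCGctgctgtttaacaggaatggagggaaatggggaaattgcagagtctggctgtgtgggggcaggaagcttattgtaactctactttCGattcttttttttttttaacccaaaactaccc
Ctss upstream, chr3:95526586-95526785: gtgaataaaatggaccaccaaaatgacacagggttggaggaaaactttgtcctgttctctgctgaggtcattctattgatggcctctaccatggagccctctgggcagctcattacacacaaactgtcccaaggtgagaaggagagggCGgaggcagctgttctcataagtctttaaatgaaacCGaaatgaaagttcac

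The 2 kb promoters, meaning the 2000 bp before each gene start, were not dense in CpGs, with 15 at Ctsk and 16 at Ctss. CpGs were closer together at the Ctsk start itself, with 7 in the 200 bp bin over it. The 300 bases printed before Ctsk held 1 CpG, and the 200 bases printed before Ctss held 2. RefSeq places the Ctsk start 46 bp upstream of the GENCODE start, at 95499210, and places the Ctss start at the same base. Short strings known from transcription factor sites were looked for on both strands of the RefSeq promoters of 300 bases. The E-box string CANNTG occurred 3 times in each (72.3% of 32851 promoters held it), the PU.1 string GAGGAA 2 times in each (28.3% of promoters) and the NFAT string TGGAAA 1 time in each (21.4%). The RUNX string ACCACA, the AP-1 string TGANTCA and the TEAD string CATTCC were in neither promoter, and were held by 16.8%, 7.81% and 14.7% of promoters. No 2 of these matches overlapped in the printed Ctsk sequence. They are matches of letters and not sites shown to be bound.

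The libraries held 261127589 CG calls in WT and 223645082 in TCKO, a call being 1 read at 1 CG cytosine. The CG methylation level, the methylated share of calls, was 70.2% in WT and 76.3% in TCKO, a difference of 6.06 percentage points. In each Tet gene, a stretch was picked because its read depth was low in TCKO relative to WT. Calls there went from 755 to 70 in Tet1, from 122 to 13 in Tet2 and from 133 to 9 in Tet3. Picking by low TCKO depth assures such a fall, and no background from other genes is given. Read depth therefore did not test the genotype labels. The cells could be checked by promoter methylation only, without expression. In WT, the 8 promoters of osteoblast genes lay between 7.94% (Col1a1) and 78.1% (Bglap), the 10 promoters of blood and macrophage genes lay between 43.5% and 85.8%, and the 8 of osteoclast genes between 17.1% (Mmp9) and 83.8% (Dcstamp). The share of other cells in either culture was not tested.

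The first comparison asked how each promoter differed between TCKO and WT. At Ctsk, the promoter level was 49.0% in WT (75 of 153 calls, 95% Wilson interval 41.2 to 56.9) and 79.8% in TCKO (95 of 119 calls, 71.7 to 86.1). The difference was 30.8 percentage points (95% Newcombe interval 19.5 to 40.8), and the 2-sided Fisher exact test gave p = 4.09e-06 after Benjamini-Hochberg adjustment over 21662 promoters. At Ctss, the promoter level was 77.7% in WT, with 160 of 206 calls methylated, and 78.5% in TCKO, with 164 of 209. The difference was 0.799 points (interval -7.15 to 8.76), with an adjusted p of 0.972 by the same Fisher exact test. Of all promoters tested, 25% were higher and 2.12% were lower in TCKO at an adjusted p below 0.05, so 1 of the 2 members was called where a gain was common. The median difference over all promoters was 4.89 points, and 297 genes (1.37%) gained at least as much as Ctsk against 69.6% that gained at least as much as Ctss. The Ctsk gain exceeded the Ctss gain by 30.0 points (interval 16.2 to 42.8, p = 2.02e-04, Zelen exact test of equal odds ratios). At 77.7% in WT, the Ctss promoter had less than 30.8 points left to gain, so the gains in points could not have been equal. The Ctsk call was lost with 1 cytosine kept per strand and 200 bp bin (22.1 points, adjusted p = 0.0811, Fisher exact test) and on the plus strand alone (16.8 points, adjusted p = 0.405, Fisher exact test).

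**Figure D1:**
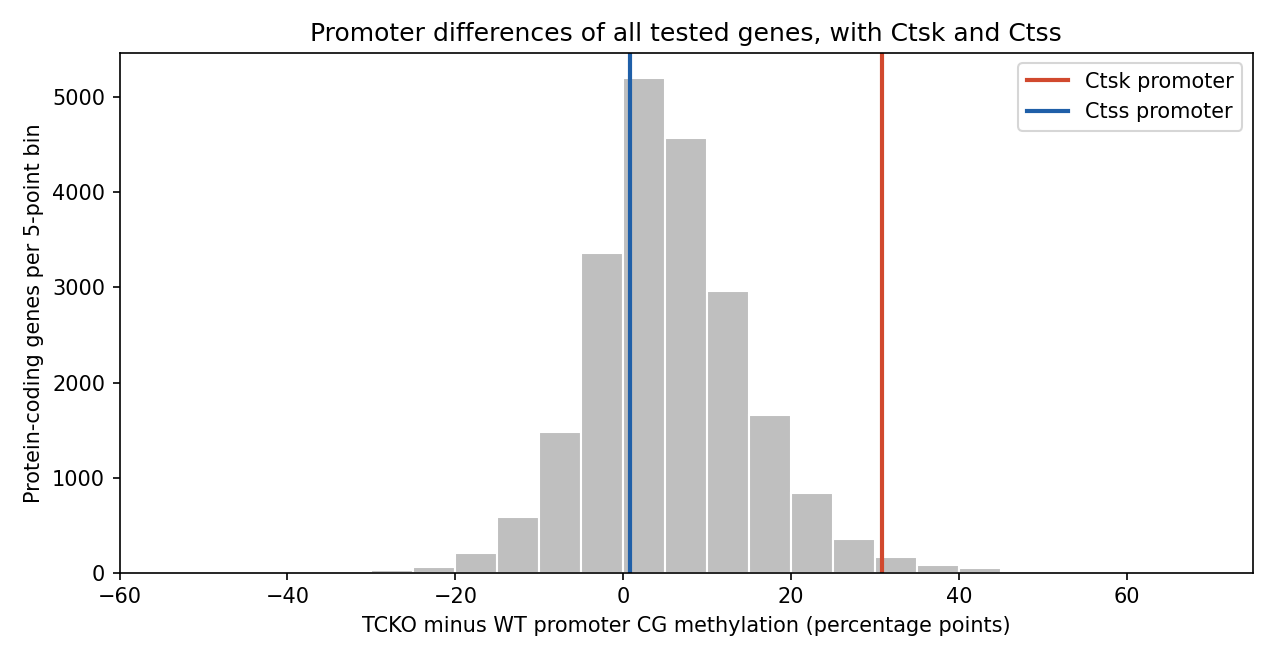
Histogram of the TCKO minus WT difference in promoter CG methylation (horizontal axis, percentage points) over all tested protein-coding genes (vertical axis, genes per 5-point bin), with lines at Ctsk and Ctss. Ctss (0.799) sits near the centre and Ctsk (30.8) in the right tail, where 1.37% of genes gained as much.

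Within the Ctsk promoter, the difference lay in the kilobase next to the gene. That 1 kb was at 6.67% in WT, with 5 of 75 calls methylated, and 72.0% in TCKO, with 54 of 75. Most of its TCKO calls came from CpGs in its last 46 bp, which RefSeq counts as part of the gene. The kilobase before that 1 kb was methylated in both libraries, at 89.7% of 78 calls in WT and 93.2% of 44 calls in TCKO. At Ctss, the 1 kb before the start was at 77.5% in WT and 83.7% in TCKO, and the kilobase before that at 77.9% and 70.9%. No such low segment preceded Ctss. With the window set from 1 kb upstream to 100 bp downstream, Ctsk went from 3.45% to 70.7% and Ctss from 78.0% to 84.0%.

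The 200 bp bin over the Ctsk start (chr3:95499201-95499400, 7 CpGs) had no methylated call in WT, 0 of 123, which allows a level of up to 2.44%. In TCKO it was at 72.5%, 100 of 138 calls (interval 64.5 to 79.2). The bin spans the last bases before the gene, exon 1 (chr3:95499256-95499336) and the first bases of intron 1. Its adjusted p was 2.52e-36 by the 2-sided Fisher exact test over 2487317 testable bins. Testing needed 4 or more CG cytosines in a bin, covered by 4 or more calls each on average in both libraries, and a hyper or hypo call also needed a difference above 40 points. Nearly all of these calls came from the minus strand, 97.6% of them in WT and 89.1% in TCKO, with at most 18 calls per cytosine in WT and 25 in TCKO. Neighbouring CpGs share reads, so these calls were not independent of each other. With 1 cytosine kept per strand, the difference was 66.7 points (p = 1.40e-06, 2-sided Fisher exact test), and on the 3 WT and 15 TCKO calls of the plus strand it was 93.3 points (p = 0.0049, same exact test).

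The single CpGs of this bin, with both strands pooled, were each at 0 in WT on 16 to 18 calls. Counted from the first base of Ctsk, the TCKO level was 84.6% of 26 calls at -19 and 59.1% of 22 calls at -7. In exon 1 it was 81.0% at 20, 35.0% at 35, 77.8% at 46 and 92.3% at 60, on 13 to 21 calls each. At 110, in intron 1, it was 83.3% of 18 calls. The CpG at 35 thus stood lowest among the 7, on 7 methylated calls of 20, and the other 6 were all at 59.1% or above. Further upstream, the CpGs at -454 and -358 went from 0 of 8 and 0 of 11 calls in WT to 5 of 6 and 3 of 9 in TCKO.

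**Figure D2:**
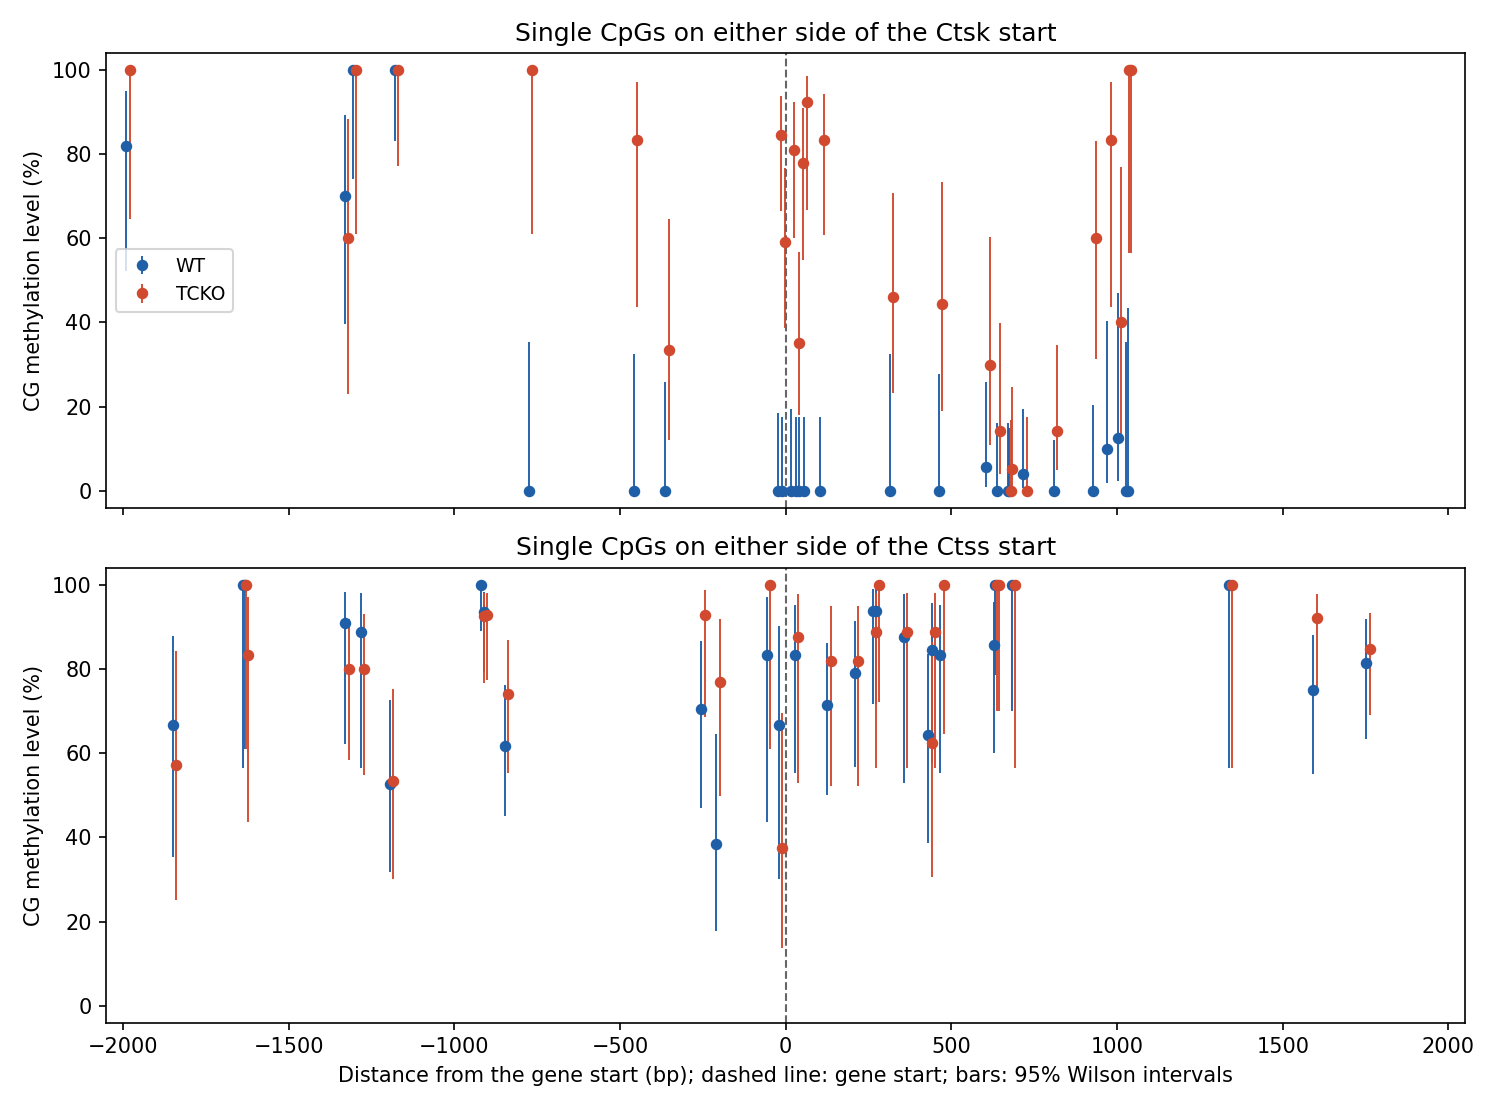
CG methylation level (%, vertical axis) of single CpGs with at least 5 calls in each library, by distance in bp from the Ctsk start (top) and the Ctss start (bottom), with 95% Wilson intervals as bars. At Ctsk, WT lies at or below 12.5% from -771 to 1038 while TCKO is high at the start, low from 643 to 814 and high again beyond it; at Ctss no CpG of either library lies below 37.5%.

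The stretch without methylation in WT went on into intron 1. In the window, 25 CpGs in a row, from -454 to 1076 bp of the Ctsk start (chr3:95498802-95500332), were each at or below 20% in WT with at least 3 calls. Together they were at 1.14% in WT, with 4 of 352 calls methylated, and 47.5% in TCKO, with 154 of 324. TCKO did not rise evenly along the stretch. In the intron 1 bin at chr3:95499801-95500000 the level was 1.90% in WT, with 2 of 105 calls methylated, and 7.50% in TCKO, with 6 of 80, with an adjusted p of 0.386 by the Fisher exact test. Its 5 CpGs were at 30.0%, 14.3%, 0%, 5.26% and 0% in TCKO, in order along the gene. In the next bin, chr3:95500001-95500200, WT had 0 of 43 methylated calls and TCKO 9 of 31, or 29.0% (adjusted p = 0.00497, same Fisher exact test). In the bin after that, chr3:95500201-95500400, WT was at 9.30% of 43 calls and TCKO at 77.8% of 27. That bin had too few calls per cytosine in both libraries to be tested.

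The gain of the start bin exceeded that of the low intron 1 bin by 66.9 points (interval 55.1 to 76.1). The odds ratios of those bins differed (p = 0.0011, Zelen exact test), while those of the bins at chr3:95500201-95500400 and chr3:95499801-95500000 did not pass the test (p = 0.0870, same exact test; difference of gains 62.9 points, interval 39.2 to 77.2). Against the bin at chr3:95500001-95500200, the start bin gained 43.4 points more (interval 23.9 to 60.2). Both were at 0 in WT, so the Zelen test could give no other value than 1 there and was void. These pairs were chosen after their values were seen. The low bin was read mostly from the plus strand (92.4% of its WT calls) and the start bin mostly from the minus strand. Their pooled levels therefore come mostly from different strands. On the plus strand alone, the start bin differed by 93.3 points, on 3 WT and 15 TCKO calls. The low bin had 71 of its 80 TCKO calls on that strand, and 6 methylated TCKO calls on both strands together. The difference of gains on 1 strand was not tested. The low bin, whose sequence is printed above, held 1 NFAT string and 2 E-box strings. These strings occurred in 21.4% and 64.4% of all testable bins.

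Around the Ctss start, the CpGs were methylated in both libraries. The bin that holds the start (chr3:95526601-95526800) had 9 of 12 calls methylated in WT (75%) and 9 of 14 in TCKO (64.3%), too few to be tested; the interval of its difference of -10.7 points ran from -40.9 to 23.5. The next bin, chr3:95526801-95527000, was at 76.9% in WT, with 40 of 52 calls methylated, and 83.3% in TCKO, with 25 of 30, with an adjusted p of 0.943 by the Fisher exact test. At 33, in the 5′ untranslated part of exon 1, the CpG was at 83.3% of 12 calls in WT and 87.5% of 8 in TCKO, and at 131, in the coding part, at 71.4% of 21 and 81.8% of 11. The lowest CpG in WT was at -204 before the gene, with 5 of 13 calls methylated against 10 of 13 in TCKO. The CpG at -16 was at 4 of 6 calls in WT and 3 of 8 in TCKO. None of the 28 CpGs within 2 kb of the Ctss start with at least 5 calls in each library was at or below 20% in WT, and their median went from 84.0% to 88.9%. For Ctsk, 23 of the 27 such CpGs were at or below 20% in WT. The median of these 23 went from 0% to 59.1%, with 21 higher, 1 lower and 1 equal in TCKO. These 23 were picked by a low WT level and had little room to fall. Their counts of higher and lower CpGs do not test a gain.

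The second comparison concerned the gene bodies, from the first to the last base of each gene. Over 1275 calls, the Ctsk body was at 62.1% in WT, and over 1120 calls it was at 76.3% in TCKO, a difference of 14.1 points (interval 10.5 to 17.7, adjusted p = 3.56e-13, 2-sided Fisher exact test over 21625 bodies). The Ctss body went from 72.9% of 3449 calls to 79.7% of 2959, a difference of 6.80 points (interval 4.72 to 8.87, adjusted p = 5.48e-10, same Fisher exact test). Both members were called higher, as were 64.4% of all bodies, and 2.79% of bodies were lower. The median difference of all bodies was 5.66 points, and 4.79% of genes gained at least as much as the Ctsk body and 39.3% at least as much as the Ctss body. The Ctsk body gained 7.33 points more than the Ctss body (interval 3.11 to 11.5, p = 0.00701, Zelen exact test). This order rested on the first 2 kb of the genes: without them Ctsk gained 4.61 points and Ctss 6.94, a difference of -2.33 points (interval -6.36 to 1.67, p = 0.828, same exact test). With 1 cytosine kept per strand and bin, the Ctsk body difference was 4.53 points and was not called (adjusted p = 0.149, Fisher exact test).

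By exon and intron, the low part of the Ctsk body was its 5′ end. The first 2 kb was at 4.32% in WT, with 14 of 324 calls methylated, and 44.7% in TCKO, with 122 of 273, and the rest of the body at 81.8% and 86.4%. Exon 1 had 0 of 70 methylated calls in WT, which allows up to 4.29%, and was at 69.4% of 72 calls in TCKO. Intron 1 was at 5.35% and 34.2%. From exon 3 onward, each exon and intron with a call was at 57.6% or above in WT. Intron 5, the longest, was at 86.8% of 418 calls in WT and 86.2% of 297 in TCKO, and its difference of -0.647 points had an interval of -5.91 to 4.33. The last exon, which holds the 3′ untranslated end, was at 57.6% of 59 calls and 75.3% of 81. In Ctss, exon 1 was at 75.8% and 84.2%, intron 1 at 83.7% and 88.6%, and intron 2, which holds the pseudogene Hmgb1-ps5, at 73.0% and 81.7%. Ctss exon 7 was the lowest of its parts in WT, at 44.4% of 18 calls, with 52.6% of 19 in TCKO.

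**Figure D3:**
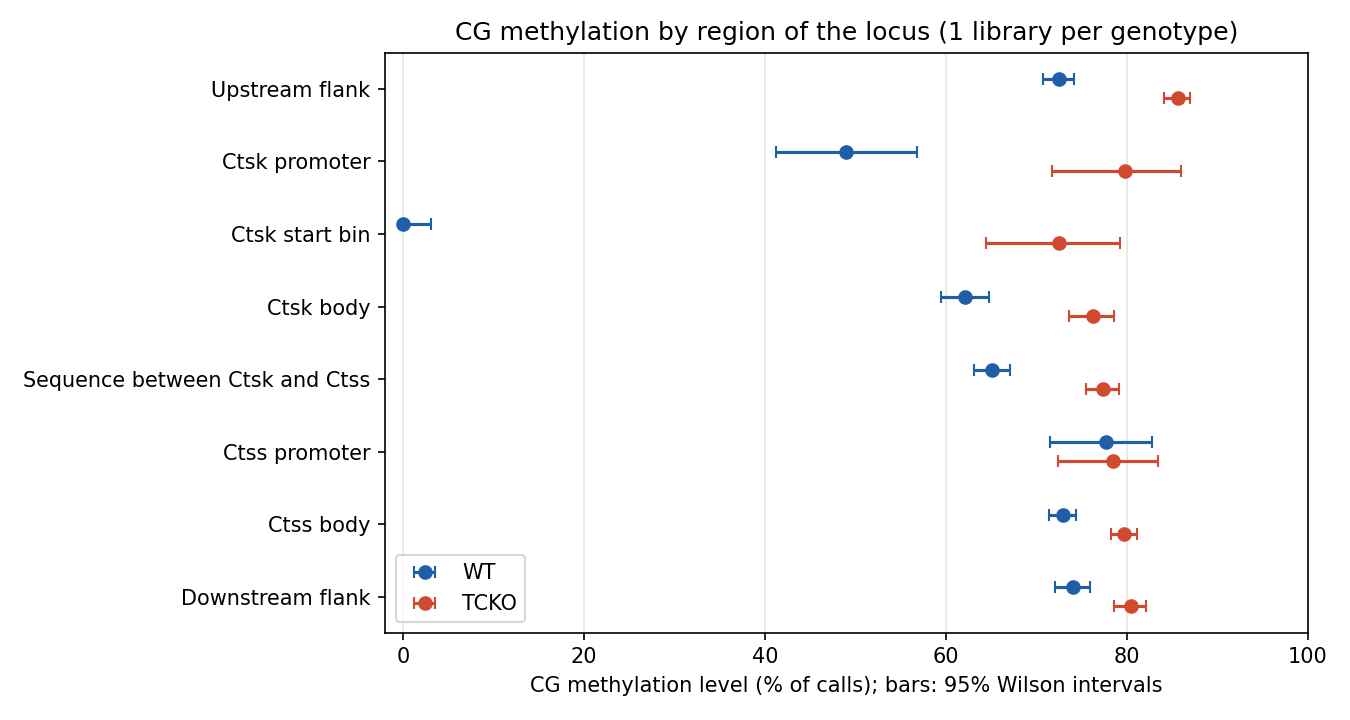
CG methylation level (% of calls, horizontal axis) of each region of the locus in WT and TCKO, with 95% Wilson intervals as bars. The Ctsk start bin goes from 0% to 72.5% and the Ctsk promoter from 49.0% to 79.8%, while the Ctss promoter points lie at 77.7% and 78.5%.

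The sequence outside the genes was higher in TCKO as well. Over all CG calls the difference was 6.06 points, and on chromosome 3 it was 6.66. The tests of this paragraph compare with no difference and not with that background. Between the genes the level was 65.2% of 2141 calls in WT and 77.4% of 2074 in TCKO, a difference of 12.2 points (interval 9.51 to 14.9, p = 1.86e-18, 2-sided Fisher exact test). The 25 kb before Ctsk, which includes its promoter and the end of Arnt, went from 72.5% to 85.7%, or 13.2 points (interval 10.9 to 15.4, p = 7.43e-30, Fisher exact test). Without the 1 kb next to Ctsk, that flank still went from 74.3% to 86.1%. The 25 kb after Ctss went from 74.1% to 80.5%, or 6.39 points (interval 3.76 to 9.02, p = 2.34e-06, Fisher exact test). These 3 tests were not adjusted, and the last was lost with 1 cytosine kept per strand and bin (3.31 points, p = 0.0684, Fisher exact test).

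In bins of 200 bp, 124 of the window were testable and 4 of them (3.23%) were hyper in TCKO, against 2.91% of bins genome-wide. None was hypo, against 0.0349% genome-wide; with no limit on size, 1 bin of the window was lower at an adjusted p below 0.05 (background 0.179%) and 10 were higher (background 6.71%). The share of hyper bins was therefore near the background. The 124 bins had a median difference of 7.32 points, against 4.76 over all testable bins, with 100 higher and 23 lower. Of the 5 bins at or below 20% in WT, all were higher in TCKO, by 5.60 to 72.5 points with a median of 29.0, and 3 passed the test. Among the 73848 such bins of the genome the median was 23.5 points and 45.7% were higher at an adjusted p below 0.05.

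**Figure D4:**
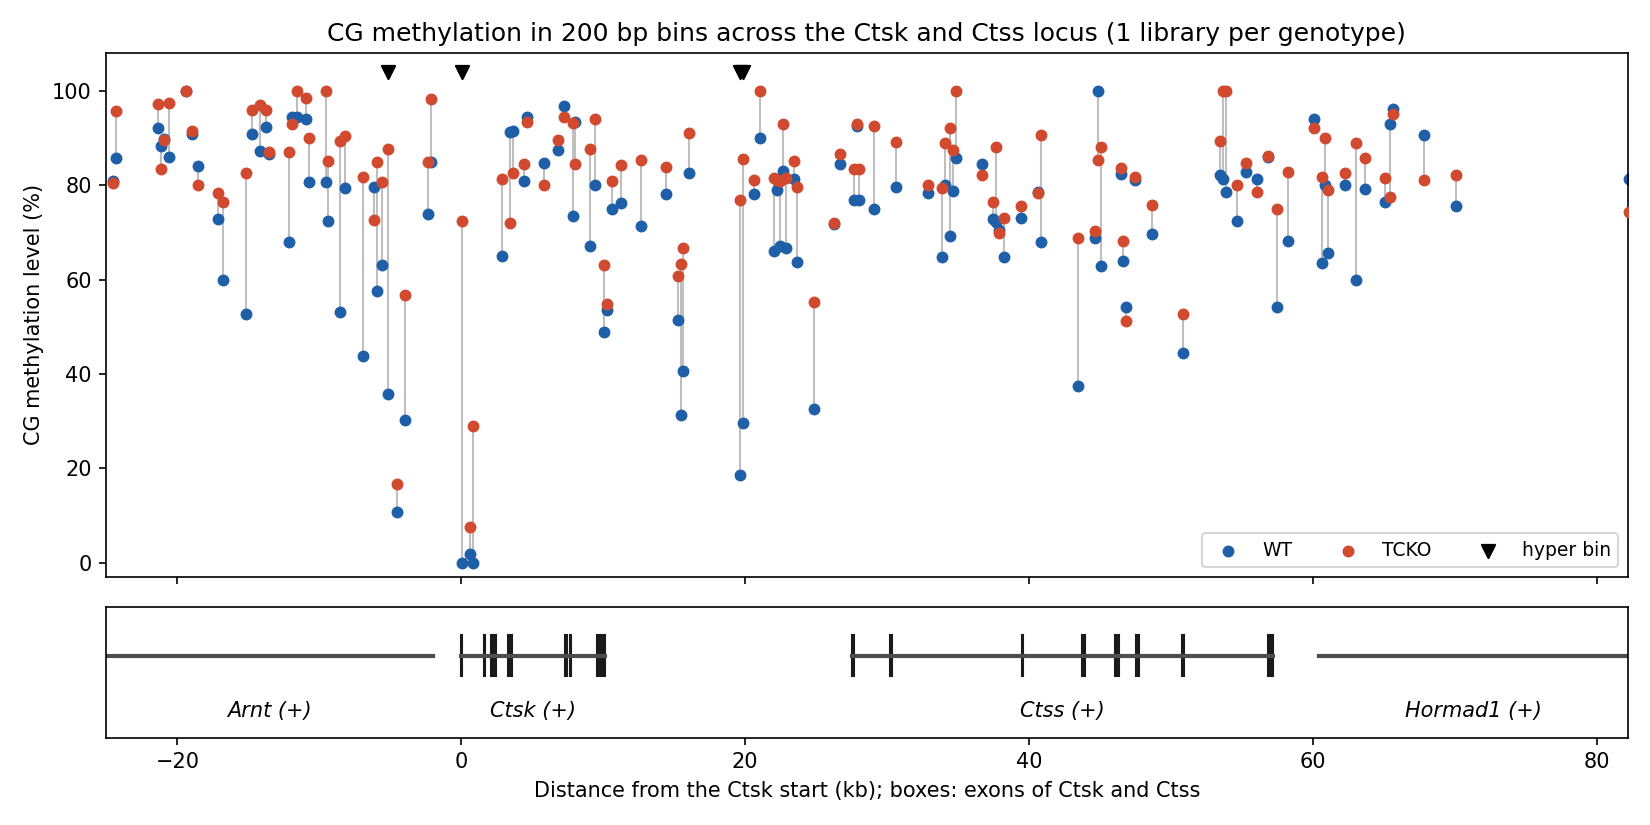
CG methylation level (%, vertical axis) of the 124 testable 200 bp bins in WT and TCKO, by distance of the bin's middle from the Ctsk start in kb, with grey lines joining the libraries, triangles over the 4 hyper bins and the gene models below (exons drawn for Ctsk and Ctss). The bins at or below 1.90% in WT lie at the start of Ctsk, and no such low bin lies at the start of Ctss.

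Besides the Ctsk start bin, the hyper bins lay outside both members. In an intron of Arnt, the gene of a partner of the aryl hydrocarbon receptor, the bin at chr3:95494001-95494200 went from 35.7% of 28 calls to 87.8% of 49, with an adjusted p of 2.29e-04 by the Fisher exact test. Between the genes, 2 adjoining bins gained together. The first, chr3:95518801-95519000, went from 18.5% of 27 calls to 76.9% of 26 (adjusted p = 0.00101, Fisher exact test). The second, chr3:95519001-95519200, went from 29.5% of 61 calls to 85.5% of 62 (adjusted p = 3.06e-08, Fisher exact test). They lay at -7885 and -7685 bp from the Ctss start, nearer to it than to the Ctsk start. Of the strings looked for, the printed sequence of the first held 1 E-box string, and that of the second 1 E-box and 1 TEAD string (10.8% of testable bins held the latter). The RUNX string ACCACA and the AP-1 string TGANTCA were in none of the printed sequences. Other forms of these sites were not looked for, so their absence was not tested.

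Smaller gains past the test were found in an Arnt bin at chr3:95484001-95484200 (52.7% to 82.5%), in Ctsk intron 7 at chr3:95508201-95508400 (67.1% to 87.8%), in adjoining bins between the genes at chr3:95514601-95514800 (31.3% to 63.2%) and chr3:95514801-95515000 (40.7% to 66.7%), and in Hormad1 at chr3:95559801-95560000 (63.4% to 81.8%). The 1 lower bin was in Ctss, at chr3:95544001-95544200, with 57 of 57 calls methylated in WT and 64 of 75 in TCKO (adjusted p = 0.0382, Fisher exact test). Not every low stretch in WT was higher in TCKO. Between the genes, 5 CpGs in a row at chr3:95517524-95517779 were at 6.25% of 32 calls in WT and 4.35% of 23 in TCKO, a difference of -1.90 points (interval -16.3 to 15.3). Near the end of Arnt, 3 CpGs in a row at chr3:95494542-95494695 were at 9.43% and 21.4%. Some 3 CpGs at chr3:95523853-95524070, before Ctss, went from 1 of 27 calls to 8 of 19.

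Over the whole window, 678 CpGs had at least 5 calls in each library, of which 434 were higher, 174 lower and 70 equal in TCKO. The 60 CpGs at or below 20% in WT had a median of 41.0% in TCKO, and 15 of them were still at or below 20%. The 116 CpGs over 20% and up to 60% had medians of 50% and 77.0%, and the 502 over 60% had medians of 84.3% and 90.0%. In the Ctss body, 12 CpGs were at or below 20% in WT against 22 in the Ctsk body, and all 12 were higher in TCKO. CpGs picked by a low WT level had little room to fall, with a WT median of 0% in the window. Such counts therefore do not test a gain, and no share over the genome is given. The 12 CpGs of Ctss were scattered among methylated neighbours: no run of 3 or more CpGs in a row at or below 20% was found in Ctss.

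The promoter differences of the genes beside the members lay between those of Ctss and Ctsk, and neither passed the test. The Arnt promoter, outside the window, went from 39.2% to 47.1% (adjusted p = 0.162) and that of Hormad1, a meiotic chromosome protein, from 81.4% to 84.0% (adjusted p = 0.645), both by the Fisher exact test. Both bodies were higher in TCKO, by 9.45 points in Arnt and 4.55 in Hormad1, so all 4 bodies of the window were called (64.4% of all bodies were).

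Among the 20 other cathepsin genes, 4 promoters were higher in TCKO and 0 lower at an adjusted p below 0.05 by the Fisher exact test over all promoters (25% and 2.12% of all promoters). Their median difference was 3.60 points and their range -12.1 to 15.7, so the Ctsk gain of 30.8 lay above all of them. Their WT levels had a median of 69.3%, against 49.0% at Ctsk. Promoters above that median had less than 30.8 points left to gain and could not have ranked above Ctsk. The promoter of Ctsg, a serine protease of neutrophils, went from 62.7% to 78.4%, that of Ctsl, a lysosomal cysteine protease related to Ctsk, from 70.4% to 84.5%, and that of Ctsa, a lysosomal carboxypeptidase, from 69.6% to 82.5%. The promoter of Ctsc, which activates serine proteases of immune cells, went from 38.6% to 50.5%. Of their bodies, 7 were higher and 2 lower (64.4% and 2.79% of all bodies). The lower ones were Ctsq and Cts6, members of the cluster of placental cathepsins on chromosome 13, of which Ctsq fell by 7.68 points and Cts6 fell by 8.49 points. In WT, the lowest promoter of the 20 was that of Ctsc at 38.6%.

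Ctsk is a marker of osteoclasts, and its promoter was compared with those of the marker lists. Of 8 other osteoclast genes, 4 promoters were higher in TCKO (Atp6v0d2 by 19.4 points, Calcr by 17.4, Ocstamp by 13.6 and Oscar by 11.7) and 0 lower, with a median of 10.8 points. Of 8 osteoblast genes, 6 promoters were higher, with a median of 22.2 points, led by the collagen gene Col1a1 (7.94% to 49.1%) and the transcription factor gene Runx2 (28.7% to 54.5%). Of 10 blood and macrophage genes, 2 were higher (Itgam by 13.0 points and Csf1r by 11.3), with a median of 8.99 points. All these calls are by the Fisher exact test over all promoters, of which 25% were higher.

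By WT and TCKO promoter level together, the genes nearest to Ctsk among 18090 with at least 100 calls in each library were Hcls1 (49.3% and 80%), C130060K24Rik (48.7% and 80.2%) and Ube2e3 (50% and 80%), at distances of 0.288 to 0.995 points. Those nearest to Ctss were Olfr1039 (77.8% and 78.5%), Qars (77.8% and 78.6%) and Myh15 (77.7% and 78.3%).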

How the data were processed

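Primary osteoblasts of 1 WT and 1 TCKO sample were analysed. Per the labels and the study's methods, the authors aligned reads with BSMAP 2.74 to GRCm38, kept uniquely mapped reads and deposited, per cytosine, a count of unconverted reads and a count of all reads. The processing notes also name CASAVA. Removal of duplicate reads is not given in the sources used here. Only CG cytosines on the nuclear chromosomes were used.

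Calls were pooled over the cytosines of a region. Promoters were the 2 kb before a gene start of GENCODE M21, and a promoter or body was tested with at least 20 calls in each library. Bins of 200 bp were counted from position 1 of each chromosome. Each difference was tested by a 2-sided Fisher exact test, p-values were adjusted over all promoters, bodies or testable bins (Benjamini-Hochberg), and the threshold was 0.05. Differences of gains were tested by Zelen's exact test, with intervals combined from the 95% Wilson bounds. A level of 0 was taken to allow 3 calls. The procedure was tested on simulated calls drawn independently, so that test does not cover neighbouring calls that share reads. Sequences and starts are from GRCm38 and RefSeq (GRCm38.p6). Python 3.11.15, numpy 2.4.6, numba 0.67.0 and matplotlib 3.10.9 were used.

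The members and lists were chosen with earlier results of these data known. The text names the members, the genes of the window, the cathepsins with the most gain or a fall past the test, the 3 nearest promoters, called or low bins, bins within 2 kb and CpGs near each start. Alternatives changed the promoter window, the call minimum, the strand, the cytosines kept, the bin grid and the bin thresholds.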

Additional observations from a re-analysis of the deposited data

How the results depend on the processing

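Each region was recomputed under other promoter windows, call minimums, single strands, means over cytosines and, chosen after seeing the data, with 1 cytosine kept per strand and 200 bp bin, so that calls of 1 read count less often. Of 68 recomputed values, 55 kept their side of the threshold or stayed within the spread. Among these, the Ctss promoter difference changed sign without passing the test. It was -17.4 points on the minus strand (adjusted p = 0.152, Fisher exact test) and -2.01 points with 1 cytosine per strand and bin. On the plus strand, the Ctsk promoter difference was 16.8 points (adjusted p = 0.405, Fisher exact test), the promoter difference of gains 12.3 (p = 0.547, Zelen exact test) and the body difference of gains 8.68 (p = 0.0980, Zelen exact test). With 1 cytosine per strand and bin, the differences were 22.1 points at the Ctsk promoter (adjusted p = 0.0811, Fisher exact test), 4.53 at the Ctsk body (adjusted p = 0.149, Fisher exact test) and 3.31 in the downstream flank (p = 0.0684, Fisher exact test), and the body difference of gains was -2.70 (p = 0.507, Zelen exact test). Without the first 2 kb, the body difference of gains was -2.33 points. As a mean over cytosines, the Ctss promoter difference was -8.22 points. The cause was not tested for these. Fewer calls remained on 1 strand or with 1 cytosine per bin. Hyper bins in the window numbered 7 with a mean of 1 call per cytosine, 0 with 10, 9 above 20 points and 1 above 60, against 4. At a mean of 10 calls per cytosine the Ctsk start bin was itself left out, since its mean was 8.79 calls in WT. No paired analysis was possible because each genotype had 1 library. Single CpGs rested on few calls and were not tested.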
